A study of Mus musculus with 15 samples.

Results

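Mitochondrial ribosomal protein genes were followed in RNA bound to tagged ribosomes from mouse Purkinje cells at 5 postnatal ages. Members were the genes whose symbol starts with Mrpl or Mrps followed by a number. Pseudogenes were left out, and only probe sets with a single symbol were used. Where a gene had several probe sets, the one with the highest mean over all 15 arrays stood for it. The rule gave 75 genes of 19500 genes on the array, from 81 of 22092 probe sets. Of these, 49 encode proteins of the large subunit and 25 proteins of the small subunit. Despite their names, Mrps30 and Mrps18a sit in the large subunit. Mrps36 counts in neither, since its product is now assigned to the oxoglutarate dehydrogenase complex. RefSeq lists 78 protein-coding mouse genes with such names, and Mrpl33, Mrpl53 and Mrps6 were not analysed here. All 75 array symbols match the current RefSeq symbol of the same gene number.

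The arrays came from mice carrying Tg(Pcp2-L10a-Egfp), a transgene that puts a green fluorescent protein tag on ribosomal protein L10a under the Pcp2 promoter, which is active in Purkinje cells. All groups carried it and no array came from mice without it, so the labels set the groups apart by age alone. The ages, as days after birth, were P0, P7, P15, P21 and P56, with 3 arrays each. In translating ribosome affinity purification, beads with antibodies to the tag pull tagged ribosomes and their RNA from a homogenate, here of pooled cerebella. The labels name the arrays of an age as replicates but do not say whether each came from its own pool, so p-values measure the spread between these arrays, which may be technical. Values are the deposited log2 signals, and each difference below is a log2 change, the later age minus the earlier.

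Mitochondria carry their own ribosome, which is built from RNAs encoded in mitochondrial DNA and from proteins encoded in the nucleus. The proteins treated here are made on cytosolic ribosomes, imported and assembled around the mitochondrial ribosomal RNAs. The finished particle translates a small set of messenger RNAs that encode core subunits of the respiratory chain and ATP synthase. Some of its proteins have counterparts in bacterial ribosomes and others are specific to mitochondria. Purkinje cells build a large dendritic tree after birth and depend strongly on oxidative metabolism.

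Nuclear genes for mitochondrial proteins often have binding motifs of NRF1, of ETS factors such as GABPA, or of YY1 near their start. RefSeq promoters of build GRCm38.p6, which run from 250 bases before to 50 bases after a gene's start, were matched by gene number. Of the 75 members, 66 had at least one. Windows of 4 members are shown from 250 bases before to 30 bases after the start, 5′ to 3′ along the gene, because they belong to members whose values the sections below turn on. Mrps12 and Mrpl18 had the largest increases between P21 and P56, Mrps11 shares its start region with another member, and Mrpl17 was among the members that were lowest at P56. Capitals mark a match to the ETS motif CCGGAAG, the NRF1 motif GCATGCGC or the YY1 motif AAGATGGC on either strand.

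Mrps12, chr7:28741792-28742071, minus strand: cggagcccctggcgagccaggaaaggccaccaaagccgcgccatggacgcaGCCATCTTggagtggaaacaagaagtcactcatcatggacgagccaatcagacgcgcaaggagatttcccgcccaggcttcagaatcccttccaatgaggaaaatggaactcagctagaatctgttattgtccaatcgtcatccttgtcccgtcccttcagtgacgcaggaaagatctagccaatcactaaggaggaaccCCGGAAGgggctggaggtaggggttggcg
Mrpl18, chr17:12916062-12916341, minus strand: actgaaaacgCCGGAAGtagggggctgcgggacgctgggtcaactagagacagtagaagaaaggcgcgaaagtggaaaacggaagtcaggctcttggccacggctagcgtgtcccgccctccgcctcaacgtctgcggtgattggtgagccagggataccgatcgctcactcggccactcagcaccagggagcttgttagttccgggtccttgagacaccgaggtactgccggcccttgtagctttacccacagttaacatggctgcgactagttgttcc
Mrps11, chr7:78782881-78783160, plus strand: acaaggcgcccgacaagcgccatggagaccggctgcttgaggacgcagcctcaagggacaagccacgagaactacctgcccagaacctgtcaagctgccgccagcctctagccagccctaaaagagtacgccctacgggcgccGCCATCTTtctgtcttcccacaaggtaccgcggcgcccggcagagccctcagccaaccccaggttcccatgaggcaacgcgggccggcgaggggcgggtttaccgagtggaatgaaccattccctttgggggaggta
Mrpl17, chr7:105811058-105811337, minus strand: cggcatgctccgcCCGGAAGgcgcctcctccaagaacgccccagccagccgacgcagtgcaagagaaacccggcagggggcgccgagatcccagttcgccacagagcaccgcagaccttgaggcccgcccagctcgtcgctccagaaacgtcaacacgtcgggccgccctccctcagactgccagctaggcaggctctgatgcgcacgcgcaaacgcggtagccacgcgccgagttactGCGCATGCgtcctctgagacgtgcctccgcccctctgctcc

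In the Mrps12 window the YY1 match lies on the opposite strand, 199 to 192 bases before the start, and the ETS match covers bases 2 to 8 of the transcript, counted from 1 at the start. The ETS match of Mrpl18 lies 240 to 234 bases before the start. The YY1 match of Mrps11 lies on the opposite strand, 107 to 100 bases before the start. Mrpl17 holds an ETS match 237 to 231 bases before the start and an NRF1 match on the opposite strand, 11 to 4 bases before it. Over the 300-base windows, the ETS motif was found in 24 of 72 member promoters (33.3%), against 8.86% of all 32851 promoters and 11.6% of the 21262 protein-coding ones. The YY1 motif was in 12 member promoters (16.7%), against 2.75% of all promoters and 3.05% of the protein-coding ones. The NRF1 motif was in 7 (9.72%), against 2.71% of all and 3.51% of the protein-coding ones. The E-box CACGTG, a motif bound by MYC and other factors, was in 7 (9.72%), against 7.15% of all and 7.84% of the protein-coding ones. Overlapping promoters of Mrpl2 hold the same E-box site and were each counted, so this is not a count of genes. At least 1 of the first 3 motifs was present in 36 of the 66 members (54.5%), a share that was not taken over other genes. These counts describe letters in a window, and binding was not measured.

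Between P0 and P7 the members rose almost as one group. Signals were higher at P7 for 73 of 75 members, where 33.6% of all probe sets were higher, and lower for 0, where 28.5% of all probe sets were lower (limma moderated test, Benjamini-Hochberg adjusted p under 0.05). The median change was 1.32 over members, with a range of −0.10 to 2.89 and an SD over genes of 0.58. The median over all genes was 0.06. Called rises of at least 1 were found in 51 members, and in 2111 of all 19500 genes. The rise included 47 of 49 large subunit genes, with a median of 1.33, and all 25 small subunit genes, with a median of 1.10. On 74 members the 3 arrays at P7 did not overlap the 3 at P0, a count that was not taken over all probe sets.

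Mrpl20, whose bacterial counterpart binds ribosomal RNA early in assembly of the large subunit, changed most. Its signals were 11.64, 11.57 and 11.57 at P7, against 8.53, 8.78 and 8.80 at P0. The P7 arrays all lay far above the P0 arrays, and the change was 2.89 (SE 0.08, limma adjusted p 4.93e-15), a 7.43-fold difference. Mrps34, a mitochondria-specific protein needed in mice for a stable small subunit, was at 10.20, 10.26 and 10.20 at P7, against 7.62, 7.58 and 7.67 at P0, a change of 2.59 (SE 0.08, adjusted p 1.11e-14). Mrpl36, a small protein of bacterial type in the large subunit, was at 11.44 on each P7 array, against 8.97, 8.85 and 8.98 at P0. Its change was 2.51 (SE 0.07, adjusted p 3.78e-15), and the groups were again fully apart.

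Mrpl1 and Mrpl22 were the 2 members not called in this step. Mrpl1, the protein of the mobile stalk beside the exit site for used tRNAs, had signals of 9.21, 9.27 and 9.19 at P7, against 9.47, 9.27 and 9.24 at P0. The groups overlapped, with a change of −0.10 (SE 0.08, adjusted p 0.317). Mrpl22, whose bacterial counterpart lines the tunnel through which the new peptide leaves, was at 8.52, 8.33 and 8.47 at P7, against 8.02, 7.98 and 8.26 at P0. Its arrays did not overlap, but the change of 0.36 missed the threshold (adjusted p 0.0643). Over all 5 ages, 74 members differed between some ages by the F-test of the same fit, where 81.6% of all probe sets did, and Mrpl1 was the exception (adjusted p 0.0759).

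**Figure D1:**
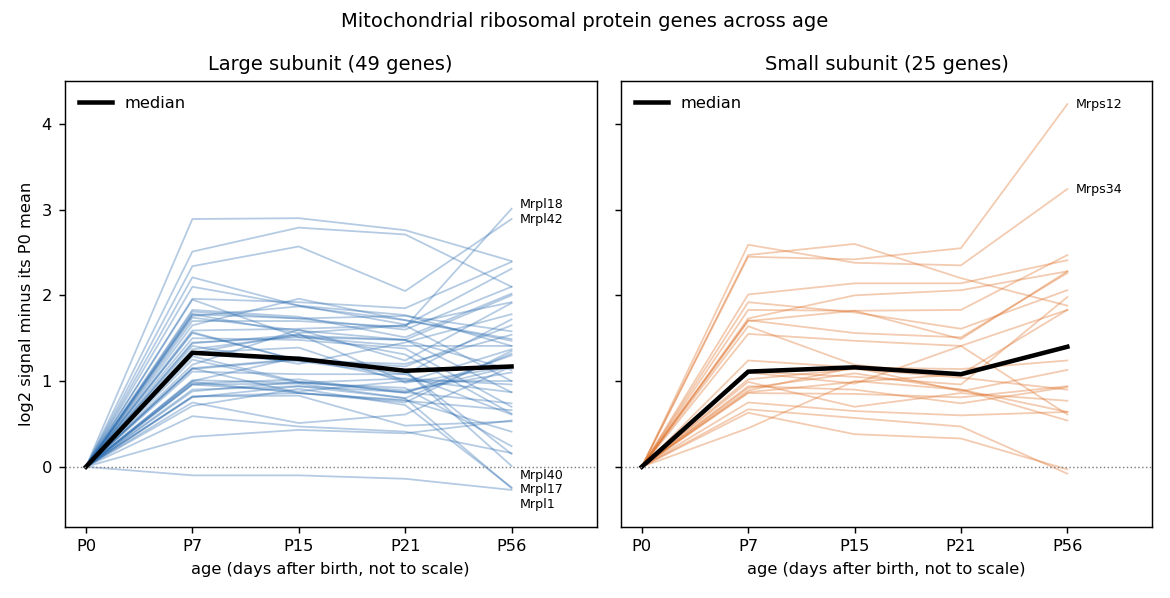
Mean log2 signal at each age (horizontal axis, P0 to P56) minus the mean at P0 (vertical axis), with a thin line per gene for 49 large subunit genes (left) and 25 small subunit genes (right) and a thick line for the median. The lines climb between P0 and P7, stay nearly level to P21 and spread apart at P56, where Mrps12 reached 4.23 and Mrpl1 lay at −0.27.

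The P0 arrays also differed from the later ones in markers of cell types, and this moves with every comparison against P0. Of 8 Purkinje cell markers 7 were measured, and all 7 were higher at P7 than at P0, with a median change of 3.99. Their mean log2 signal ranged from 13.11 to 13.15 over the P7 arrays, against 9.28 to 9.37 over the P0 arrays. All 5 endothelial markers were lower at P7 (median −2.04), with a mean signal of 7.09 to 7.17 at P7, against 9.44 to 9.45 at P0. All 5 interneuron markers were lower as well (median −2.17), while 4 of 4 measured oligodendrocyte markers (2.86) and 4 of 5 granule cell markers (3.07) were higher. Microglia markers were lower for 4 of 5, and astrocyte and Bergmann glia markers for 4 of 5. The part of these shifts in the members' change was not tested. More Purkinje cell RNA in the purified sample and more of these messages per Purkinje cell cannot be told apart here.

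The weeks between P7 and P21 brought few changes. Between P7 and P15, 8 members were higher at P15, where 10.4% of all probe sets were higher, and 11 were lower, where 13.6% of all were lower. Between P15 and P21, 1 member was higher at P21, where 10.5% of all probe sets were, and 11 were lower, where 7.16% of all were. The median change was −0.02 in the first of these steps and −0.09 in the second, and 47 members were called in neither. These counts rested on few members, and leaving out P15 replicate 1 gave 4 higher between P7 and P15 and 6 lower between P15 and P21. Leaving out P7 replicate 1 gave 5 higher and 5 lower between P7 and P15, and leaving out P7 replicate 2 or 3 gave 5 higher. Without P15 replicate 3, 7 were lower at P15 than at P7. The members' shares lay near those of the whole array up to P15. Between P15 and P21 a larger share of members than of all probe sets was lower (14.7%), and a smaller share was higher (1.33%).

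Mrps21, a small subunit protein of bacterial type, showed the largest increase between P7 and P15. It was at 12.51, 12.48 and 12.55 at P15, against 11.89, 11.92 and 12.07 at P7, a change of 0.55 (SE 0.10, adjusted p 0.000764). Mrpl55, a large subunit protein, rose by 0.40 (adjusted p 0.0016), and Mrpl14, which lies at the face that meets the small subunit, by 0.30 (adjusted p 0.00694). Mrps18b fell by 0.44 (SE 0.08, adjusted p 0.000947), with signals of 11.09, 11.09 and 10.87 at P15, against 11.54, 11.44 and 11.38 at P7. Mrpl23, whose bacterial counterpart stands at the mouth of the exit tunnel, changed by −0.44 (SE 0.14, adjusted p 0.0288). One P15 array at 11.18 lay below the others at 11.80 and 11.82, against 12.12, 12.03 and 11.97 at P7, and without that array the change was −0.23 (adjusted p 0.173). The call was also lost without any one P7 array, with changes of −0.40, −0.44 and −0.47. Mrpl46, a mitochondria-specific protein of the large subunit, fell by 0.33 (adjusted p 0.0123), and without P7 replicate 1 the change was −0.30 (adjusted p 0.0583).

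Mrps27, a small subunit protein with pentatricopeptide repeats, was the member higher at P21 than at P15. Its signals spread over 9.58, 9.41 and 9.12 at P21, against 8.94, 8.92 and 8.92 at P15, and the change was 0.45 (SE 0.09, adjusted p 0.00266). Mrpl32 fell most in this step, to 9.61, 9.35 and 9.33 at P21, against 10.02, 9.84 and 10.11 at P15 (change −0.56, SE 0.09, adjusted p 0.000232). The Mrpl32 protein is cut to its mature form by the m-AAA protease of the inner mitochondrial membrane. Mrpl42, a mitochondria-specific protein of the large subunit, changed by −0.52 (SE 0.11, adjusted p 0.00236), and its P21 arrays at 10.29, 9.88 and 9.82 lay below its P15 arrays at 10.64, 10.46 and 10.46. Mrpl47 changed by −0.41 (SE 0.11, adjusted p 0.0195), with overlapping arrays at 8.69, 8.20 and 8.33 at P21, against 8.91, 8.62 and 8.92 at P15. That call was lost without P15 replicate 1 or 3 or P21 replicate 2 or 3, with changes of −0.37 to −0.30.

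In the step into adulthood members moved in both directions, as did probe sets of the whole array. Signals were higher at P56 than at P21 for 35 of 75 members (46.7%), where 22.1% of all probe sets were higher. They were lower for 24 members (32.0%), where 34.3% of all probe sets were lower, and 16 were not called. The share that fell was thus near that of the whole array, and the share that rose was larger. The members' changes ran from −1.12 to 1.69 with a median of 0.13, against −0.03 over all genes. All 35 members that rose here and all 24 that fell had risen between P0 and P7. The array medians were lower at P56, and setting each array's median to 0 moved every change of this step up by 0.23. On that scale 44 members were higher and 13 lower, where 49.9% of all probe sets were higher and 22.3% lower. The members' share of rises then lay closer to that of the whole array. The 35 risers were all still higher, and 11 of the 24 that fell were no longer called.

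Mrps12 rose most. Its protein is the counterpart of bacterial S12 at the site where codon and anticodon are matched. It was at 6.72, 6.71 and 6.80 at P0, at 9.18, 9.18 and 9.20 at P7, at 9.18, 9.24 and 9.05 at P15, at 9.25, 9.46 and 9.16 at P21 and at 11.12, 10.97 and 10.84 at P56. The signal thus moved in 2 separate steps with a level stretch between them. The change from P21 to P56 was 1.69 (SE 0.08, adjusted p 5.25e-11), a 3.22-fold difference. Mrpl18, whose bacterial counterpart binds ribosomal RNA in the central protuberance, the crown of the large subunit, was at 12.09, 12.18 and 12.04 at P56, against 10.74, 10.74 and 10.68 at P21 (change 1.39, SE 0.06, adjusted p 2.12e-11). Mrps17, a small subunit protein of bacterial type, was at 9.97, 10.13 and 10.10 at P56, against 9.18, 8.88 and 9.05 at P21 (change 1.02, SE 0.09, adjusted p 3.27e-08). In these 3 members every P56 array lay above every P21 array.

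Further increases came from Mrps34 (0.88), Mrpl42 (0.84), Mrps28 (0.79), Mrps16 (0.76) and Mrps9 (0.75). Mrps9 reached 10.11, 9.84 and 9.74 at P56, against 9.13, 9.13 and 9.17 at P21. Mrpl58, which began as a release factor for stalled ribosomes and is now a fixed part of the large subunit, rose by 0.43. The 35 members that rose comprised 20 of the large subunit, 14 of the small subunit and Mrps36.

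Mrpl57, a mitochondria-specific protein of the large subunit, fell most. It was at 10.07, 10.08 and 10.00 at P0, at 11.04, 11.08 and 11.04 at P7, at 11.40, 11.31 and 11.29 at P15, at 11.31, 11.18 and 11.04 at P21 and at 9.96, 10.16 and 10.05 at P56. The adult arrays overlapped the newborn ones. The change from P21 to P56 was −1.12 (SE 0.08, adjusted p 1.54e-09). Mrpl17, whose bacterial counterpart lies near the exit of the peptide tunnel, was at 9.28, 9.55 and 9.38 at P56, against 10.42, 10.50 and 10.47 at P21 (change −1.06, SE 0.08, adjusted p 5.01e-09). Mrpl15, a core protein of bacterial type, was at 9.62, 9.68 and 9.81 at P56, against 10.71, 10.69 and 10.62 at P21 (change −0.97, SE 0.07, adjusted p 6.1e-09).

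Mrpl40, a mitochondria-specific protein of the central protuberance, changed by −0.96 (SE 0.06, adjusted p 1.16e-09), with 11.08, 11.10 and 11.08 at P56, against 12.12, 12.05 and 11.99 at P21. Mrps27, the single member that had risen between P15 and P21, was at 8.59, 8.54 and 8.58 at P56 and fell by 0.80 (adjusted p 1.08e-06). Mrpl34, a small protein of bacterial type, fell by 0.69 (adjusted p 2.09e-06). All 6 of these members had risen by at least 0.5 by P7. Of the 75 members, 14 were called with a change of at least 0.5 in each direction in different steps between neighbouring ages. That number was 7 with array medians at 0 and 9 with quantile normalization. It was not counted over all genes, so whether it is unusual cannot be told.

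**Figure D2:**
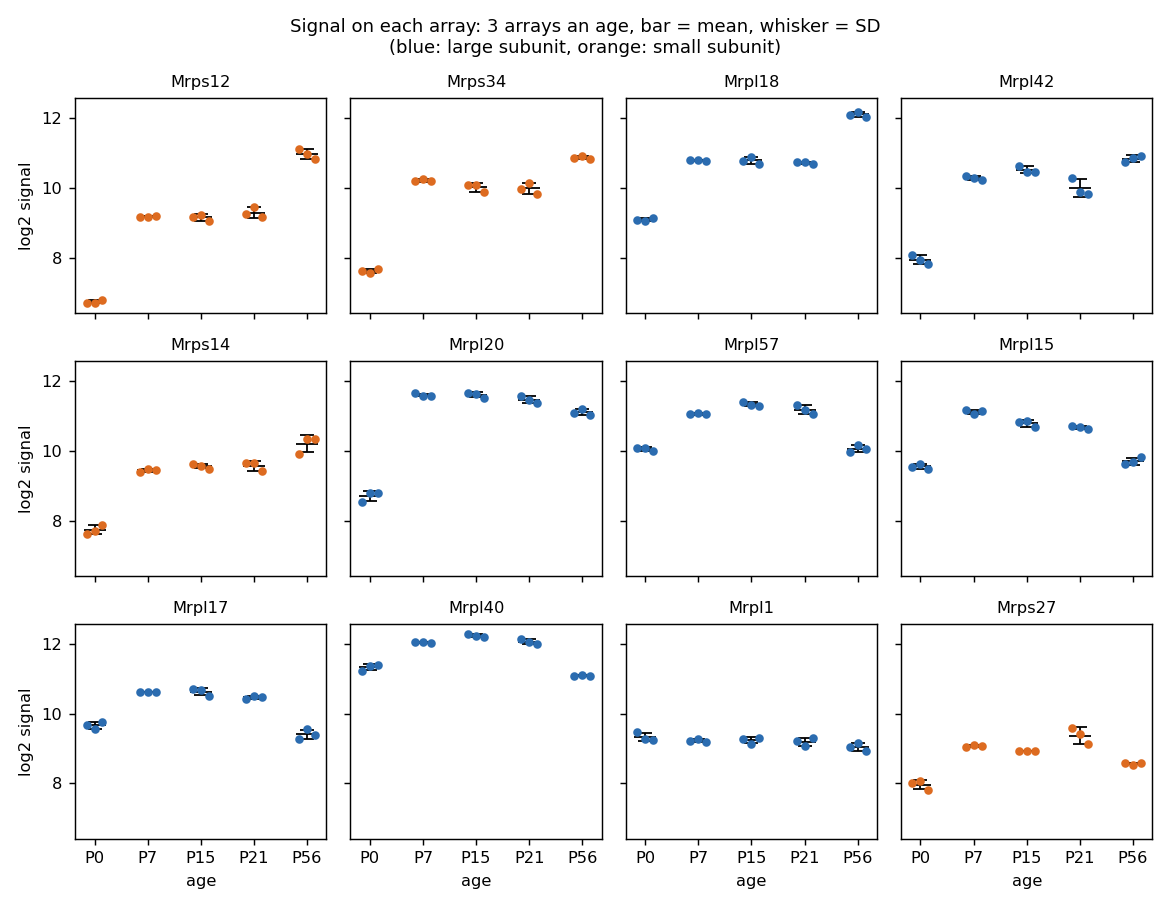
Log2 signal (vertical axis) on each of the 3 arrays at each age (horizontal axis) for 12 members, with the mean as a bar, the SD as a whisker, blue for large subunit and orange for small subunit. Mrps12, Mrps34 and Mrpl18 have a second upward step at P56, whereas Mrpl57, Mrpl15 and Mrpl17 return to within 0.3 of their P0 means.

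Large and small subunit genes took both directions. Between P21 and P56 the large subunit had 20 genes higher, 18 lower and 11 without a call (median −0.01). The small subunit had 14 higher, 6 lower and 5 without a call (median 0.22). With array medians at 0 the counts were 26 and 11 in the large subunit and 17 and 2 in the small. Among members with bacterial counterparts 21 rose and 19 fell, and among those specific to mitochondria 13 rose and 5 fell. Scaled to array medians of 0, these were 23 higher and 10 lower, and 20 higher and 3 lower. Mrps18a and Mrps18b, although descended from bacterial S18, were counted as specific to mitochondria, and both are among the 13 that rose. A difference between these classes was not tested.

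Members that sit together in the particle also split. The groupings here were chosen after the values were seen and are given as values only. In the central protuberance Mrpl18 rose by 1.39 and Mrpl46 by 0.26, Mrpl40 fell by 0.96, and Mrpl38 (−0.07) and Mrpl48 (−0.01) were not called. Around the peptide exit tunnel Mrpl24 rose by 0.60, Mrpl17 fell by 1.06, Mrpl23 by 0.61 and Mrpl4 by 0.47, and Mrpl22 (0.15) was not called. In the stalk that recruits translation factors Mrpl11 rose by 0.30, while Mrpl10 fell by 0.68 and Mrpl12, which also binds the mitochondrial RNA polymerase, fell by 0.36. Neighbours in the assembled particle thus had changes of opposite sign in all 3 places. With array medians at 0, Mrpl12 was no longer called lower, and Mrpl38 (0.16), Mrpl48 (0.23) and Mrpl22 (0.38) were called higher.

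**Figure D3:**
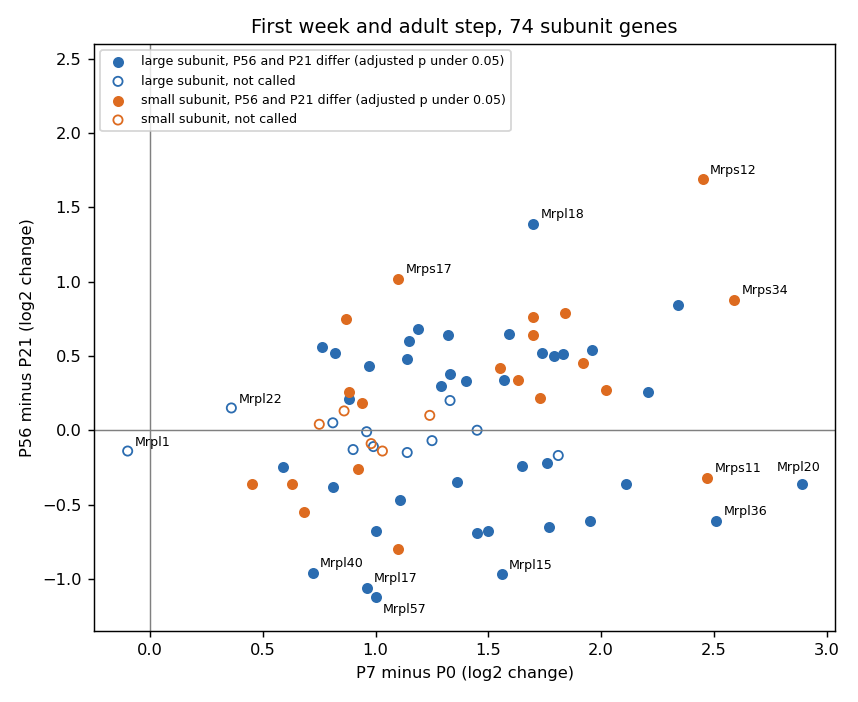
Change from P0 to P7 (horizontal axis, log2) against change from P21 to P56 (vertical axis, log2) for the 74 genes of the subunits, with filled points for genes called in the later step. Nearly all points lie right of 0, but they spread both above and below it, from −1.12 for Mrpl57 to 1.69 for Mrps12.

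The size of the first step said little about the second. These steps share no array. Over the 75 members the correlation of the changes was r = 0.25 (Spearman rho 0.26), and over all 19500 genes it was 0.14 (rho 0.10). These are descriptions across genes, which are not independent replicates. Mrps11 and Mrpl36, for example, rose by 2.47 and 2.51 by P7 and fell by 0.32 and 0.61 between P21 and P56. With array medians at 0 these later changes were −0.08 (not called) and −0.37 (lower).

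Cell type markers shifted in the adult step too, though not as between P0 and P7. Of the 7 measured Purkinje cell markers 3 were higher at P56 than at P21, 1 was lower and 3 were not called (median 0.15). On the scale with array medians at 0, 5 were higher and 0 lower (median 0.38). All 4 oligodendrocyte markers were lower at P56 (median −1.32), with a mean signal of 9.32 to 9.46 at P56, against 10.77 to 11.02 at P21. Of 5 astrocyte and Bergmann glia markers 4 were lower (median −0.68), with 9.31 to 9.42 at P56, against 10.12 to 10.24 at P21. Of 5 interneuron markers 3 were lower (median −0.85), with 7.63 to 7.79 at P56, against 8.73 to 8.94 at P21. Whether these shifts bear on the members that fell was not tested.

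Across the whole span, 68 of 75 members were higher at P56 than at P0, where 40.1% of all probe sets were higher. Only 3 were lower, where 35.3% of all were lower, and 4 were not called. The median change was 1.29, against 0.09 over all genes. Rises of at least 1 were called in 45 members, and in 2124 of all 19500 genes. Large subunit genes had a median of 1.17 and small subunit genes one of 1.40. P0 was the age of the lowest mean in 70 members and P56 in 5. The highest mean fell at P56 in 30 members, at P7 in 21, at P15 in 21, at P21 in 2 and at P0 in 1.

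The 8 largest increases from P0 to P56 were those of Mrps12, Mrps34, Mrpl18, Mrpl42, Mrps36, Mrps14, Mrps33 and Mrpl20. Mrps12 changed by 4.23 (SE 0.08, adjusted p 4.43e-17), an 18.8-fold difference. Mrps34 was at 10.87, 10.91 and 10.82 at P56 and changed by 3.24, a 9.46-fold difference from P0. Mrpl18, at 9.09, 9.06 and 9.13 at P0, changed by 3.01. Mrpl42 was at 10.73, 10.86 and 10.92 at P56, against 8.08, 7.94 and 7.82 at P0, a change of 2.89. These 4 rose in both steps.

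Mrps36 was at 10.64, 10.52 and 10.47 at P56, against 7.89, 8.05 and 7.71 at P0 (change 2.66, SE 0.15), and its second probe set gave 2.71. Mrps14, a small subunit protein of bacterial type, was at 9.92, 10.35 and 10.35 at P56, against 7.63, 7.71 and 7.88 at P0 (change 2.47). Mrps33, specific to mitochondria, was at 11.93, 11.84 and 11.83 at P56, against 9.56, 9.46 and 9.35 at P0 (change 2.41). Mrpl20, at 11.09, 11.19 and 11.02 at P56, had a change of 2.40. Its fall of 0.36 between P21 and P56 was not called with array medians at 0 (−0.12). For all 8, every P56 array lay above every P0 array.

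The members lower at P56 than at P0 were Mrpl1 (−0.27, adjusted p 0.00763), Mrpl17 (−0.26, adjusted p 0.00701) and Mrpl40 (−0.24, adjusted p 0.00264). Mrpl1 was at 9.05, 9.17 and 8.94 at P56, below all 3 P0 arrays, but without P0 replicate 1 its change of −0.20 was not called (adjusted p 0.0536). Mrpl17 was at 9.67, 9.56 and 9.75 at P0 and Mrpl40 at 11.23, 11.35 and 11.40, in each case above all P56 arrays. These small changes were 0.05, 0.07 and 0.08 with array medians at 0, which moved all changes of this comparison up by 0.32. On that scale 72 members were higher and 0 lower, where 61.7% of all probe sets were higher and 26.3% lower. Mrpl15 (0.15), Mrpl57 (0.01), Mrps5 (−0.04) and Mrps2 (−0.08) were not called between P0 and P56. The second probe set of Mrps5 was called higher (0.23).

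With P7 in place of P0, the members showed no common direction. At P56, 27 members were higher than at P7, where 25.4% of all probe sets were, and 32 were lower, where 34.2% of all were. The median was −0.04, with a range of −1.41 to 1.78. The largest increases were those of Mrps12 (1.78), Mrpl18 (1.32) and Mrps9 (0.96). The largest decreases were those of Mrpl15 (−1.41), Mrpl17 (−1.22) and Mrpl23 (−1.08). Mrpl15 was at 9.62, 9.68 and 9.81 at P56, against 11.16, 11.05 and 11.13 at P7. Setting array medians to 0 moved these changes up by 0.26 and gave 37 higher and 17 lower, where 55.6% of all probe sets were higher and 21.8% lower.

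Mrps18a, Mrps18b and Mrps18c all descend from bacterial S18, and only one can occupy the S18 site of a small subunit. The Mrps18c protein holds that site, Mrps18b lies elsewhere in the small subunit and Mrps18a lies in the large subunit. From P0 to P56 they rose by 1.54, 1.40 and 1.13, in that order (each SE 0.08 to 0.09). Between P7 and P15 they parted. Mrps18a fell by 0.32 and Mrps18b by 0.44, whereas Mrps18c rose by 0.27 (adjusted p 0.032). All 3 rose between P21 and P56, by 0.34, 0.34 and 0.26. Mrps18c was at 9.49, 9.46 and 9.44 at P0, at 10.40, 10.34 and 10.29 at P7, at 10.70, 10.62 and 10.54 at P15, at 10.47, 10.15 and 10.39 at P21 and at 10.75, 10.60 and 10.44 at P56.

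For 6 members 2 probe sets could be compared (Mrpl23, Mrpl27, Mrpl51, Mrps33, Mrps36 and Mrps5), and no pair was called in opposite directions. Mrpl51 differed most in size, with 1.45 and 0.64 between P0 and P7. Mrpl23, Mrpl27, Mrpl48 and Mrps36 have pseudogenes in RefSeq, and signal from such copies cannot be told apart from that of the gene. No member fell below the lower quartile of its array, which lay between 5.863 and 6.015, on any array.

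Proteins of the mitochondrial ribosome that carry other names moved alike in the first week. Dap3, Ptcd3, Chchd1, Gadd45gip1 and Ndufab1 all rose between P0 and P7, by 0.88, 0.79, 1.31, 0.76 and 1.67. Between P21 and P56 Ndufab1, an acyl carrier protein that is also part of complex I, rose by 0.68 and Dap3, a GTP-binding protein of the small subunit, fell by 0.60. The other 3 were not called. From P0 to P56 Dap3 was not called (−0.07) and the other 4 were higher (0.48 to 2.27).

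Other nuclear genes that serve mitochondrial gene expression shared the first rise but were mostly not among the risers at P56. Of 19 measured mitochondrial aminoacyl-tRNA synthetases and partner enzymes, 18 rose between P0 and P7 (median 0.72), and between P21 and P56 1 rose and 14 fell (median −0.33). Hars2, the histidyl enzyme, fell by 1.16 from P0 to P56, whereas Qrsl1 and Gatb, which act together to make glutaminyl-tRNA, rose by 1.68 and 1.29. Of 16 translation factors 12 rose and 1 fell by P7, and between P21 and P56 2 rose and 9 fell. From P0 to P56 Slirp, an RNA-binding stabiliser of mitochondrial messages, rose by 2.66 and the elongation factor Gfm1 by 1.16, whereas Guf1, a GTPase of the translation machinery, fell by 2.32. Of 16 genes for mitochondrial DNA and its transcription 13 rose by P7, and 2 rose and 9 fell between P21 and P56. Ssbp1, the single-stranded DNA-binding protein, rose by 1.99 from P0 to P56 and Tfam, which packages mitochondrial DNA, by 1.22, whereas the RNA-degrading enzyme Pnpt1 fell by 1.48.

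These late counts moved with the scaling. With array medians at 0, 4 synthetases were higher and 9 lower at P56 than at P21, 6 translation factors were higher and 5 lower, and 5 of the DNA and transcription genes were higher and 7 lower. Assembly factors and ribosomal RNA modifiers stood between, with 26 of 29 up by P7 and then 9 up and 11 down (median −0.11), or 12 up and 9 down with medians at 0. Among them Fastkd2, an RNA-binding assembly factor, rose by 1.87 from P0 to P56. Ngrn, needed for the large ribosomal RNA, rose by 1.78, of which 1.10 came between P21 and P56. Spg7, a subunit of the m-AAA protease, rose by 1.62.

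Subunits of the oxidative phosphorylation complexes had counts close to those of the members. Of 69 measured, 68 rose and 0 fell between P0 and P7, with a median of 1.09. Between P21 and P56 31 rose and 20 fell, with a median of 0.10, and with array medians at 0 the counts were 44 higher and 10 lower (median 0.33). From P0 to P56 the largest increases were those of Ndufa1 (4.58), Ndufb2 (3.47) and Ndufs5 (3.22), of complex I, and Atp5l (3.45), of ATP synthase. Both lists were read on the same arrays.

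Cytosolic ribosomal proteins, which build the ribosome that carries the tag, did not share the uniform first rise. Of 47 genes matched by symbol, paralogs such as Rpl7l1 included, 24 rose and 8 fell between P0 and P7, with a median of 0.22. Between P21 and P56 27 rose and 9 fell (median 0.29), or 34 and 3 with array medians at 0 (median 0.53). The largest late changes were those of Rps12 (2.59), Rps21 (2.54) and Rps29 (1.96). Rpl12 fell by 1.90 from P0 to P56. With quantile normalization 17 were higher and 12 lower at P7 than at P0.

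**Figure D4:**
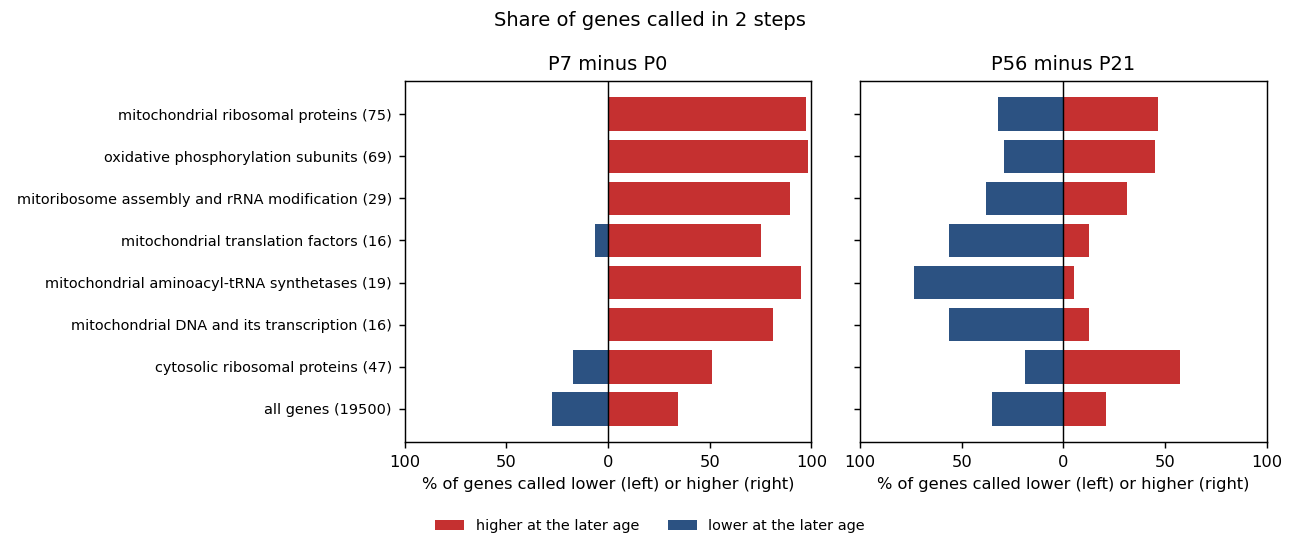
Share of genes in each list (rows, with the number measured) called higher (right, red) or lower (left, blue) at the later age, for P7 minus P0 and for P56 minus P21. Mitochondrial ribosomal proteins and oxidative phosphorylation subunits were higher for 97.3% and 98.6% of genes at P7 and for 46.7% and 44.9% at P56.

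Regulators of nuclear genes for mitochondria had patterns of their own. Esrra, a nuclear receptor that acts on oxidative genes, rose by 2.96 between P0 and P7 and by 0.76 between P21 and P56, for a change of 3.72 over the whole span. Its mean was 7.56 ± 0.39 at P0, 10.52 ± 0.07 at P7 and 11.27 ± 0.17 at P56 (SD, n = 3 arrays). The coactivators Ppargc1b and Pprc1 were highest at P21, with means of 10.88 and 9.37, and fell by 2.32 and 1.62 between P21 and P56. Ppargc1a, their relative, stayed between 11.32 and 11.98 and rose by 0.59 from P0 to P56. Esrrb rose by 3.16 between P0 and P7 and fell by 1.64 between P7 and P15, and at P56 it was above P0 (1.43). Esrrg fell by 0.59 from P0 to P56.

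Of the factors whose motifs were counted, Nrf1 changed by −0.18 between P0 and P7 and was not called, and it was lower at P56 than at P0 (−0.41). Gabpa rose by 0.33 by P7 and stood at its P0 level at P56 (0.01, not called), and its partners Gabpb1 (−0.24) and Gabpb2 (−0.21) were lower at P56 than at P0. Yy1 rose by 0.56 by P7 and was lower at P56 than at P0 (−0.16). Myc fell by 1.96 by P7 and was lower still at P56 (−3.23 against P0). Mycn rose by 0.85 by P7 but was lower at P56 than at P0 (−1.34). Ppara was lower at P56 (−0.26), and Tfeb (0.20) and Pprc1 (−0.14) were not called between P0 and P56. On the deposited scale 4 of the 15 regulators were higher and 8 lower at P56 than at P0, and with array medians at 0, 7 were higher and 3 lower. That scaling moved every change from P0 to P56 up by 0.32, which exceeds the falls of Gabpb1, Gabpb2, Yy1 and Ppara. The direction of these 4 changes and the level of Gabpa thus depend on the scaling. The fall of Nrf1 (−0.41) is little larger than this shift, so most of its size depends on the scaling too.

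Motif counts were also taken by late call. The ETS motif was present in 12 of 31 risers with a promoter, in 5 of 21 that fell and in 7 of 14 not called between P21 and P56. The YY1 motif was present in 5, 6 and 1 of the same groups, and the NRF1 motif in 3, 3 and 1. Mrps12, with the largest rise, and Mrps11, which fell, both hold the YY1 match shown above, and Mrpl18, which rose, and Mrpl17, which fell, both hold the ETS match. With array medians at 0 the fall of Mrps11 was not called (−0.08), and 11 of the 24 members that fell lost their call. The motif counts by late call were not taken on that scale. No test was made of these counts.

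Many members share a start region with a neighbour on the opposite strand. By RefSeq starts at most 1000 bases apart, a comparison chosen after values were seen, 23 such pairs were measured. In 1 of them, Mrps11 and Mrpl46, whose starts are 42 bases apart, both genes are members. Both rose by P7, by 2.47 and 2.21. Between P21 and P56 Mrps11 fell by 0.32 (adjusted p 0.00322) and Mrpl46 rose by 0.26 (adjusted p 0.0182). Mrps11 was at 10.21, 10.20 and 10.14 at P56, against 10.57, 10.58 and 10.35 at P21. Mrpl46 was at 10.32, 10.17 and 10.11 at P56, against 9.87, 9.80 and 10.15 at P21. Its groups overlapped, since 1 P21 array lay above the lowest P56 array. With array medians at 0 the fall of Mrps11 was no longer called.

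In the other 22 pairs the neighbour is not a member. Of the neighbours, 13 were higher, 3 lower and 6 not called at P7 against P0, with a median of 0.29, where the members of these pairs had a median of 1.33. Over the whole span 10 neighbours were higher and 7 lower, with a median of 0.04, against 1.38 for the members. In 6 pairs member and neighbour were then called in opposite directions and in 10 in the same direction. Same-sign changes from P0 to P7 occurred in 17 of the 23 pairs (73.9%), against 56.5% of 699 other pairs on the array. Every member in these pairs had a positive change in that step, so the count only reflects how many neighbours were positive. The other pairs were not restricted in this way, so the shares are not like for like. The correlation of changes within pairs was −0.25, against 0.1 for the others. Same-sign changes from P0 to P56 occurred in 11 of the 23 pairs (47.8%), against 52.1% of the others. All members but Mrpl40 and Mrps5 had positive changes there, so these shares are not like for like either. The count from P0 to P56 depends on the scaling, since array medians at 0 move every change of this comparison up by 0.32. That exceeds the falls of the neighbours Tcp1 (−0.14), Eme1 (−0.10), Pnpla7 (−0.11) and Fau (−0.25). It also exceeds those of the members Mrpl40 (−0.24) and Mrps5 (−0.04). The pairs were not counted on that scale.

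Mrps12 and Sars2, the mitochondrial seryl-tRNA synthetase gene, start 147 bases apart and both serve mitochondrial translation. From P0 to P56 Mrps12 rose by 4.23 and Sars2 by 0.17, and between P21 and P56 Mrps12 rose by 1.69 while Sars2 fell by 0.33. Most of that fall of Sars2 depends on the scaling, since array medians at 0 move every change of this step up by 0.23. Mrpl18 rose by 3.01 over the span, and Tcp1, a cytosolic chaperonin subunit gene 238 bases away, was not called (−0.14). Mrpl57 (0.01) and Ska3 (−1.56), a spindle gene 76 bases away, and Mrpl14 (1.47) and Tmem63b (−1.28) parted likewise. Other pairs moved alike. Mrpl43 rose by 0.66 and Twnk, the mitochondrial DNA helicase, by 1.14, and Mrpl47 rose by 1.17 and Ndufb5, a complex I subunit, by 1.28.

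**Figure D5:**
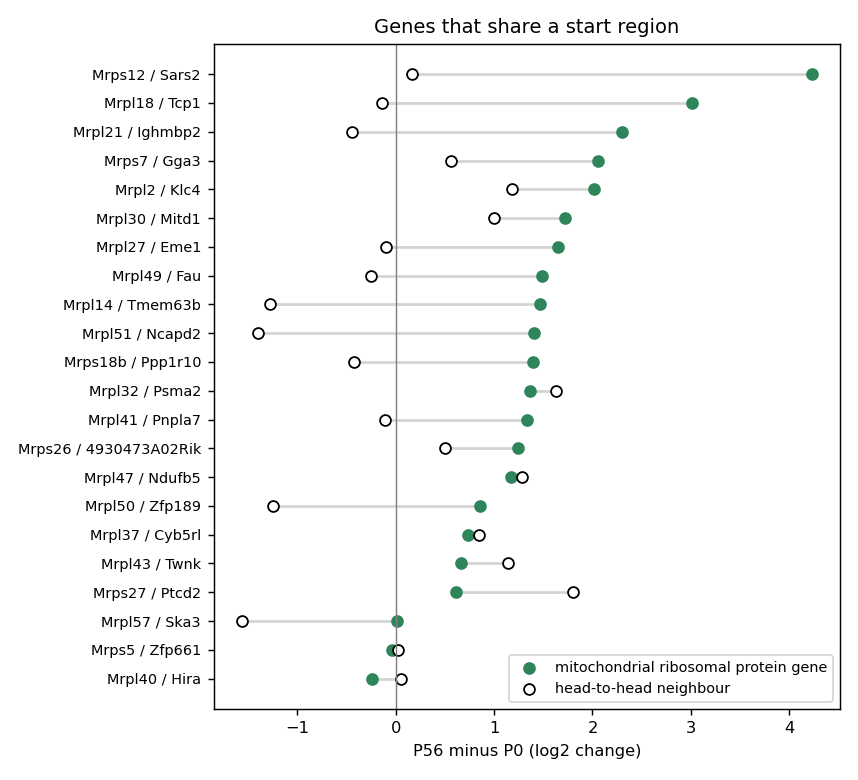
Change from P0 to P56 (horizontal axis, log2) for 22 members (filled) and for the gene that starts head to head with each (open), one pair per row. Members lie to the right of their neighbours in 15 rows, most widely for Mrps12 (4.23) and Sars2 (0.17), while Mrpl47 and Ndufb5 lie close together.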

How the data were processed

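Per the labels' protocols, RNA held by EGFP-L10a ribosomes was purified from pooled cerebella, and biotin-labelled cDNA made from it went onto Affymetrix arrays, 3 for each of 5 ages. The authors deposited 1 log2 signal per probe set and array. The submitters' processing notes name Affymetrix Power Tools. Which algorithm and log base were used is not given in the sources used here. Base 2 was read from the range of 3.15 to 14.08. Depth has no meaning for arrays, and their number limits the precision.

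Probe sets were named from the platform annotation of 2016: 20996 had 1 symbol, 91 several and 1005 none. No value was changed or removed. limma 3.58.1 in R 4.3.3 was fitted to all 22092 probe sets over 15 arrays and 5 age means (10 residual and 6.5 prior degrees of freedom), with two-sided p-values adjusted by Benjamini-Hochberg within each comparison and called below 0.05. An exact permutation of 3 against 3 arrays cannot go below 0.1 and was not used. The script was tested on simulated data: for P56 minus P0, 74% of 50 genes shifted by 0.5 and 98% of 50 shifted by 1 were called, with 11 false calls among 21892 unshifted.

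The members and gene lists were chosen with earlier results of these data known. Genes were named by rule: in full the 8 largest rises and falls from P0 to P56 with arrays apart, the 3 largest each way in other comparisons, the 6 largest that moved at least 0.5 both ways, and the S18 paralogs. Up to 4 genes were named of each related list, and all of the nuclear regulators and of the ribosomal proteins with other names. Genes given for their place in the particle or for a shared start, and some further late changes, were named after their values were seen. Alternatives were array medians at 0, quantile normalization, array weights, a trended prior, removal of the dimmest 50% of probe sets, averaging of probe sets, a replicate block, and leaving out each array. A planned protein comparison of the S18 paralogs was not run. Same-numbered arrays had no common deviation (correlations −0.3148 to 0.453), so replicate numbers were not taken as pairs.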

Additional observations from a re-analysis of the deposited data

How the results depend on the processing

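Of the changes of named members under the alternatives, 1207 kept direction and call, 14 lost the call, 6 gained one and 5 changed sign. The sign changes from P0 to P56 were those of Mrpl1 (0.05), Mrpl17 (0.07) and Mrpl40 (0.08) with array medians at 0, and of Mrpl57 without P0 replicate 3 (−0.02) or without P56 replicate 2 (−0.05). Of the counts of members called, 271 stayed within 1.5 times the reported value. With array medians at 0, the members lower were 6 between P7 and P15, 13 between P21 and P56, 0 between P0 and P56 and 17 between P7 and P56. Quantile normalization gave 1 member lower between P0 and P7, 1 between P0 and P56 and 20 between P7 and P56. Array weights gave 14 members higher between P7 and P15. Leaving out 1 array gave 4 to 9 higher and 5 to 12 lower at P15 than at P7, and 6 to 13 lower at P21 than at P15. It gave 73 to 74 higher between P0 and P7, 32 to 35 higher and 21 to 26 lower between P21 and P56, 67 to 68 higher and 2 to 3 lower between P0 and P56, and 23 to 28 higher and 27 to 32 lower between P7 and P56. The cause of these shifts was not tested. With the replicate number as a block, 74 members were higher between P0 and P7 and 12 lower between P15 and P21, and the other counts were as reported. In that check 6 of 15 arrays correlated best with their own number. Mrpl15 gained a call from P0 to P56 under 5 alternatives, and Mrpl57 (0.33) with array medians at 0. The number of members lower at P56 moved most with the scaling of the arrays. In the simulation 14% of 50 genes shifted by 0.25 were called for P56 minus P0. Far fewer genes differed there than in the data, so this share does not carry over to the data. Changes of about this size, such as those of Mrpl10 (0.24) and Mrpl40 (−0.24), were called from P0 to P56.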
